A study of Mus musculus with 6 samples.

Results

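The genes described here encode the SSBP and LDB adaptor proteins and the RING-finger ubiquitin ligases that act on them or with them. They were taken by name, as the rows of the count table whose Ensembl ID carries the symbol Ssbp2, Ssbp3, Ssbp4, Ldb1, Ldb2, Rlim, Rnf20 or Rnf40. That gave 8 genes of 56980 in the table, and 8 of the 8 passed the filter on low counts, as did 18558 of the 56980. The counts came from total RNA of whole pancreatic islets of mice at 14 weeks of age. The 3 control libraries were from animals of genotype SSBP3F/F, that is, with loxP-flanked (floxed) Ssbp3 alleles. The 3 knockout libraries were from littermates of genotype SSBP3F/F; MIP-CreER, which carry the same floxed alleles and a tamoxifen-inducible Cre recombinase driven by the mouse insulin promoter. Both groups thus share the floxed alleles, the Cre is aimed at cells that express insulin, and libraries with MIP-CreER and unfloxed Ssbp3 were not analysed here, so the transgene and the loss of Ssbp3 cannot be told apart. The sources used here do not state the tamoxifen dosing, the floxed exons or whether a library is 1 animal or a pool. The p-values therefore reflect only how far these libraries vary, which may in part be technical.

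As background, LDB1 is an adaptor without DNA-binding activity of its own. It holds LIM-homeodomain factors such as ISL1, or LIM-only proteins, through a LIM interaction domain and pairs with itself, which can bring distant regulatory elements together. SSBP proteins bind LDB1 and shield it from RLIM, a RING ligase that marks LIM cofactors for the proteasome, so the balance of SSBP, LDB and RLIM can set how much complex a cell can hold. RNF20 and RNF40 form the ligase that attaches a single ubiquitin to histone H2B in transcribed genes, and they have been found in LDB1 complexes of beta cells. In islets the LDB1 and ISL1 complex is known for the development and the mature state of endocrine cells. The comparison asks how the transcripts of this machinery stand in islets in which the floxed gene is Ssbp3.

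Library totals ran from 14907641 to 225428920 counts. Control 1 with 17587055 counts and knockout 1 with 14907641 were the shallowest of their groups. Libraries are numbered after the columns of the table, which give a group but not an animal. Levels below are CPM, counts scaled to a common library size after TMM normalization, and they are compared between genes only as CPM per kilobase of merged exon. A gene is called when the edgeR quasi-likelihood test puts it under 0.05 after Benjamini-Hochberg adjustment across the 18558 tested genes. The beta-cell markers fixed for the check of the tissue (Ins1, Ins2, Iapp, Slc30a8, Mafa, Nkx6-1, Ucn3 and Slc2a2) summed to 187400 to 241960 CPM in control and 141150 to 158700 CPM in knockout libraries, without overlap. The acinar markers summed to 13583 to 45882 CPM over the 6 libraries, with overlap between the groups. Markers of delta and PP cells summed to 5989 to 9737 CPM in control and 4062 to 5660 CPM in knockout libraries, without overlap. Of these, Sst and Hhex were lower without overlap, and Sst was called (edgeR adjusted p = 0.0223). Ppy overlapped, at 2783 to 4886 CPM in control and 2037 to 3192 CPM in knockout libraries, and was not called. The summed level of the 5 duct markers was also lower without overlap (1702 to 2216 against 944 to 1407 CPM), but that sum rests on Spp1 (1343 ± 167 against 635 ± 251 CPM, SD, n = 3). The other duct markers were not lower as a group: Krt19, Krt7 and Sox9 overlapped between the groups, with log2 fold changes of 0.05, -0.11 and 0.68, and Cftr, at 0.223 CPM in the controls and 1.48 CPM in the knockouts on average, was called higher (edgeR adjusted p = 0.0169). The sums for alpha, endothelial, stromal, immune and Schwann cells overlapped. No marker was at 0 in all libraries, and the part of these markers in the results below was not tested. Transcripts of the Y-linked genes Ddx3y, Eif2s3y, Kdm5d and Uty were present in 6 of 6 libraries.

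None of the 8 genes passed the edgeR test, and the SSBP transcripts stood in another proportion to each other in the knockout libraries. Every knockout library had less Ssbp3, more Ssbp4 and more Ldb1 than every control library. Between the groups the fitted differences were 1.32-fold lower for Ssbp3, 1.36-fold higher for Ssbp4 and 1.34-fold higher for Ldb1. The edgeR test called 0 of the 8 genes, against 7.07% of all genes tested (3.72% called higher and 3.35% called lower). Those are 691 and 621 genes, and with upper-quartile scaling they were 613 and 829. At an unadjusted p under 0.05 stood 3 of the 8, against 21.6% of all genes. DESeq2 called the same number, 3, beside 2041 of 18258 genes tested, and limma-voom called 1, beside 1725 of 18558. Of the 8 genes, 2 had every knockout library above every control library, against 14.0% of all genes, and 2 had every knockout library below every control library, against 14.1%. These small counts are close to or only somewhat above the background, so what follows is carried by the values in each library.

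**Figure D1:**
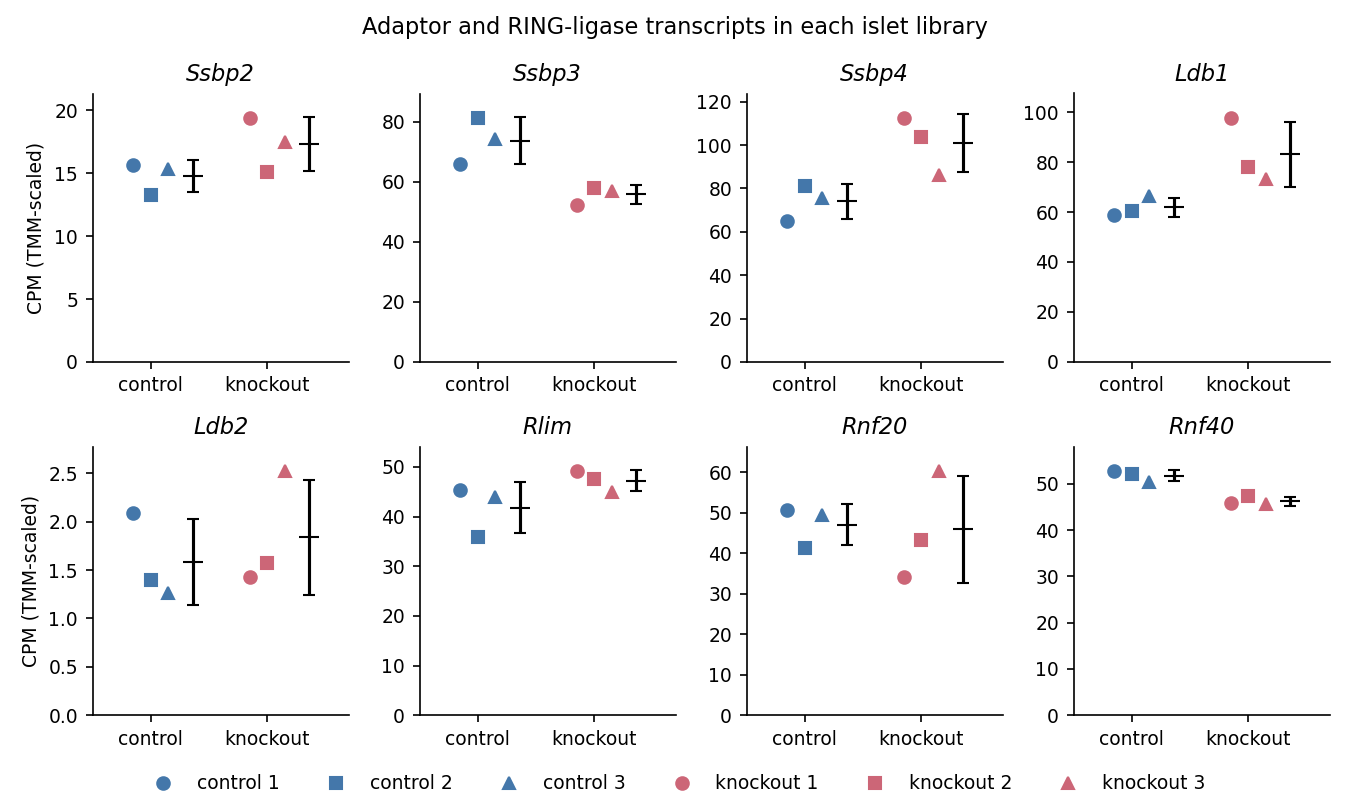
CPM (TMM-scaled) of each of the 8 genes in each of the 6 libraries, with the mean and SD of each group (n = 3) as a bar beside the points. Ssbp3 and Rnf40 are lower, and Ssbp4 and Ldb1 higher, in each of the 3 knockout libraries than in any control library, while the groups overlap for Ssbp2, Ldb2, Rlim and Rnf20.

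Ssbp3 (ENSMUSG00000061887), the floxed gene, is the check of the labels. It had 1166, 6535 and 16451 counts in control 1, 2 and 3 and 808, 4652 and 6025 counts in knockout 1, 2 and 3. Scaled, these were 65.8, 81.3 and 74.2 CPM against 52.3, 58.1 and 57.1 CPM. Each knockout library lay below the lowest control library, and the knockout libraries differed less among themselves than the controls did. The mean went from 73.8 ± 7.76 to 55.8 ± 3.12 CPM (SD, n = 3), a 1.32-fold lower level with a 95% interval of 1.11 to 1.58-fold (log2 fold change -0.40, SE 0.117, edgeR adjusted p = 0.0581). The counts cover the whole gene in all islet cells, so transcript that remains in cells without Cre, or that lacks only the floxed part, is counted as Ssbp3. In such bulk samples fewer cells of a type and less RNA per cell cannot be told apart. The sum of the beta-cell markers, mostly Ins1 and Ins2, was lower in the same 3 libraries. Ins1, Ins2, Iapp, Mafa and Ucn3 were each lower without overlap, while Slc30a8, Nkx6-1 and Slc2a2 overlapped. Of the 8 markers 2 were called lower, beside 3.35% of all genes tested. They were Mafa (log2 fold change -1.15, edgeR adjusted p = 0.0156) and Ucn3 (-0.80, 0.0176). The part of that lower sum in the Ssbp3 values was not tested. The gene lay at the edge of the threshold: it was called in 7 of 17 alternatives, among them DESeq2, limma-voom and the fit with offsets for transcript length and GC content, with adjusted p from 0.0142 to 0.283. The direction was the same in 17 of 17.

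Ssbp4 (ENSMUSG00000070003), the close relative that also carries the LDB-binding N-terminal domain, stood opposite to Ssbp3. It measured 65.1, 81.3 and 75.7 CPM in control 1, 2 and 3, against 113, 103.7 and 86.2 CPM in knockout 1, 2 and 3. The lowest knockout library was above the highest control library by a small margin only. The means were 74.0 ± 8.20 and 100.8 ± 13.4 CPM (SD, n = 3), and the fitted change was 1.36-fold with a 95% interval of 1.12 to 1.65-fold (log2 fold change 0.44, SE 0.130, edgeR adjusted p = 0.0618). It was called in 6 of 17 alternatives, with adjusted p from 0.0161 to 0.381. Without both shallow libraries the log2 fold change was 0.28, and leaving out knockout 3, the library nearest to the controls, gave 0.54 and a call (edgeR adjusted p = 0.0190).

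Ssbp2 (ENSMUSG00000003992), the third SSBP gene of this kind, was the least abundant. It measured 15.7, 13.3 and 15.4 CPM in the controls, against 19.4, 15.1 and 17.5 CPM in knockout 1, 2 and 3, and the groups overlapped. The interval of the fold change, 0.923 to 1.48, holds both no difference and a rise as large as that of Ssbp4 (log2 fold change 0.23, edgeR adjusted p = 0.451). Without knockout 1 the log2 fold change was 0.15. In the GRCm38 annotation 22.1% of its exon bases are shared with an antisense gene on the opposite strand, and without a stated strand setting their reads cannot be told apart.

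The pool of SSBP transcripts can be read within a library, where the scaling between libraries drops out. Per kilobase of exon, Ssbp3 made up 30.7%, 31.1% and 30.4% of the summed Ssbp2, Ssbp3 and Ssbp4 in control 1, 2 and 3. In knockout 1, 2 and 3 it made up 17.3%, 20.3% and 22.8%. The controls lay within 1 percentage point of each other and every knockout library was far below them. The share of Ssbp4 went the other way, from 64.1% ± 0.775 to 74.8% ± 3.02 (SD, n = 3), and that of Ssbp2 was 5.14% ± 0.924 and 5.13% ± 0.717.

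The ratio of Ssbp4 to Ssbp3 per kilobase shows the same in a single number. It was 2.06, 2.08 and 2.12 in control 1, 2 and 3, and 4.48, 3.71 and 3.14 in knockout 1, 2 and 3. The control values were nearly equal although the depths of these libraries differ widely, and the knockout values were spread, with the shallow knockout 1 farthest out. The ratio was 2.09 ± 0.0323 in the control and 3.78 ± 0.673 in the knockout libraries (SD, n = 3). In raw counts, which need no length, Ssbp3 was 44.9%, 46.2% and 44.9% of the SSBP counts in control 1, 2 and 3 and 28.4%, 32.8% and 35.5% in knockout 1, 2 and 3. With each count taken as an independent read, counting error was small beside this gap. The Wilson 95% interval, which covers counting error only, ran from 43.0% to 46.8% in control 1 and from 34.8% to 36.2% in knockout 3. It leaves out the spread between libraries, and it is too narrow if read pairs were counted as separate reads. These shares are a description of genes chosen with earlier results in view and were given no test.

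**Figure D2:**
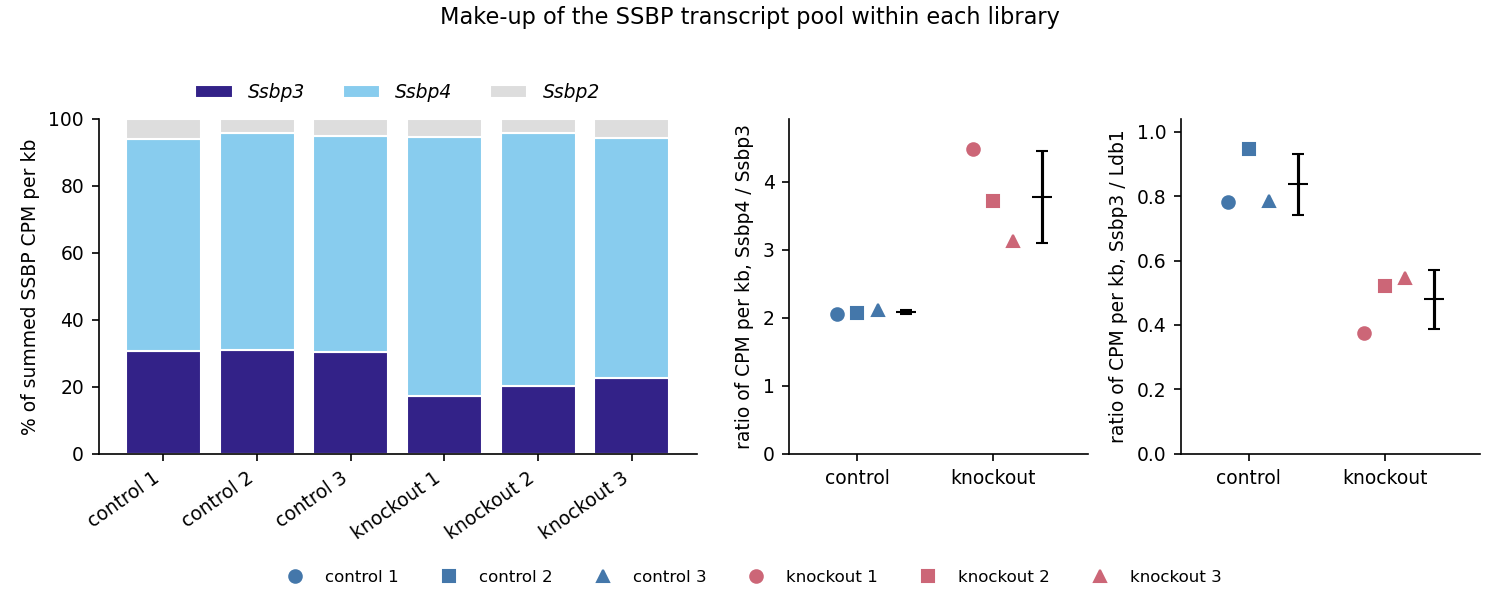
Left, the percentage of the summed CPM per kilobase of Ssbp2, Ssbp3 and Ssbp4 that each gene takes in each library. Middle and right, the ratios of CPM per kilobase of Ssbp4 to Ssbp3 and of Ssbp3 to Ldb1 by library, with the mean and SD (n = 3): the first is near 2.09 in the controls and 3.14 to 4.48 in the knockouts, the second 0.781 to 0.945 and 0.374 to 0.545.

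The summed SSBP level was not lower in the knockout libraries. It was 32.6, 39.7 and 37.1 CPM per kilobase in control and 45.9, 43.5 and 38.1 CPM per kilobase in knockout 1, 2 and 3, and knockout 3 lay between the control libraries. Ssbp1, which shares the name but encodes the single-stranded DNA-binding protein of mitochondria, is no member of this family. It fell from 28.0 ± 3.12 to 19.1 ± 1.88 CPM (SD, n = 3; log2 fold change -0.56, SE 0.144, edgeR adjusted p = 0.0363). Its call ended when any 1 of the 6 libraries was left out (adjusted p 0.0520 to 0.192; 0.0114 to 0.192 over 17 alternatives).

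Ldb1 (ENSMUSG00000025223), the adaptor that SSBP proteins bind, was higher in the knockout libraries. It measured 59.0, 60.2 and 66.3 CPM in control 1, 2 and 3, against 97.7, 78.1 and 73.3 CPM in knockout 1, 2 and 3. Knockout 1 stood apart from the other knockout libraries, which lay closer to the controls. The means were 61.8 ± 3.89 and 83.1 ± 12.9 CPM (SD, n = 3), a 1.34-fold difference with a 95% interval of 1.11 to 1.62-fold (log2 fold change 0.42, SE 0.128, edgeR adjusted p = 0.0679). It was called in 4 of 17 alternatives, with adjusted p from 0.0260 to 0.364. Without knockout 1 the log2 fold change was 0.30, and without both shallow libraries 0.26. With offsets for length and GC content it was 0.39 (edgeR adjusted p = 0.0906). In the GRCm38 annotation 3.84% of the exon bases of Ldb1 overlap Pprc1 on the opposite strand.

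With Ssbp3 lower and Ldb1 higher, their ratio per kilobase separated the groups. It was 0.781, 0.945 and 0.783 in control 1, 2 and 3 and 0.374, 0.520 and 0.545 in knockout 1, 2 and 3. Between all SSBP and both LDB transcripts the groups overlapped: that ratio was 2.42, 2.94 and 2.51 in control and 2.12, 2.49 and 2.29 in knockout 1, 2 and 3. In raw counts, where the longer Ssbp3 weighs more, the SSBP to LDB ratio was 2.57 ± 0.250 in the control and 2.07 ± 0.186 in the knockout libraries (SD, n = 3), without overlap. The mean of this ratio was lower in the knockout libraries under the other lengths too. It was 2.63 in control and 2.30 in knockout libraries by merged exons, and 3.31 and 2.85 by longest transcript. Whether the groups overlapped depended on how length was counted.

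Ldb2 (ENSMUSG00000039706), the second LDB gene, was a minor transcript of these islets. It had 37, 112 and 279 counts in control 1, 2 and 3 and 22, 126 and 266 counts in knockout 1, 2 and 3. In CPM these were 2.09, 1.39 and 1.26 against 1.42, 1.57 and 2.52, and the groups overlapped through control 1 only. Per kilobase it took 2.55% to 4.66% of the LDB transcripts in control and 1.97% to 4.53% in knockout libraries. At these counts the interval of the fold change was wide, 0.666 to 2.18 (log2 fold change 0.27, edgeR adjusted p = 0.756). Endothelial cells are a known site of Ldb2 expression. The 10 endothelial markers summed to 307 to 368 CPM in control and 358 to 447 CPM in knockout libraries. Of the 10, 1 was called higher, Cdh5 (edgeR adjusted p = 0.0481), beside 3.72% of all genes tested. The part of the endothelial markers in the Ldb2 values was not tested.

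Rlim (ENSMUSG00000056537), the X-linked ligase that acts on LDB1, showed no difference past the test. It measured 45.4, 35.9 and 44.0 CPM in the controls, against 49.2, 47.6 and 45.0 CPM in knockout 1, 2 and 3. Control 1 lay just above knockout 3, which is the whole of the overlap, and control 2 was the low library. The log2 fold change was 0.18 with a 95% interval of -0.09 to 0.45 (edgeR adjusted p = 0.453), so a rise of up to 1.37-fold lies within the interval. Without control 2 the log2 fold change was 0.09. Relative to Ldb1 per kilobase, Rlim stood at 0.349 ± 0.0453 in the control and 0.297 ± 0.0322 in the knockout libraries (SD, n = 3), with overlap. Among the E2 enzymes that can serve such ligases and the RLIM substrate Zfp42, 0 of 4 genes tested were called (0 at an unadjusted p under 0.05 by edgeR). Over all genes tested these shares were 7.07% and 21.6%. Ube2d2a had a log2 fold change of 0.16, Ube2d1 of 0.21 and Ube2e1 of -0.17, and Zfp42 was at 0 counts in 6 of 6 libraries. Single libraries weighed on these small values: without knockout 2 that of Ube2d1 was 0.12, and that of Ube2e1 was -0.06 without knockout 1 and -0.28 without knockout 2.

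Rnf20 and Rnf40 encode the partners of the H2B ligase, and they differed in how even they were. Rnf40 (ENSMUSG00000030816) measured 52.7, 52.2 and 50.4 CPM in the controls, against 45.8, 47.3 and 45.6 CPM in knockout 1, 2 and 3. The groups did not overlap and the libraries of a group were close together, but the gap was small: the log2 fold change was -0.16 with a 95% interval of -0.40 to 0.07 (edgeR adjusted p = 0.422). In the GRCm38 annotation 9.71% and 3.84% of the exon bases of Rnf40 are shared with antisense genes.

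Rnf20 (ENSMUSG00000028309) measured 50.6, 41.1 and 49.4 CPM in the controls, against 34.0, 43.3 and 60.2 CPM in knockout 1, 2 and 3. The knockout libraries held both the lowest and the highest of the 6 values. The means of 47.0 ± 5.14 and 45.8 ± 13.3 CPM (SD, n = 3) differed by less than either SD, and the interval of the log2 fold change, -0.43 to 0.37, holds differences of either sign (log2 fold change -0.03, edgeR adjusted p = 0.950). The ratio of Rnf40 to Rnf20 per kilobase was 1.35, 1.64 and 1.32 in control and 1.75, 1.42 and 0.981 in knockout 1, 2 and 3, in overlap.

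**Figure D3:**
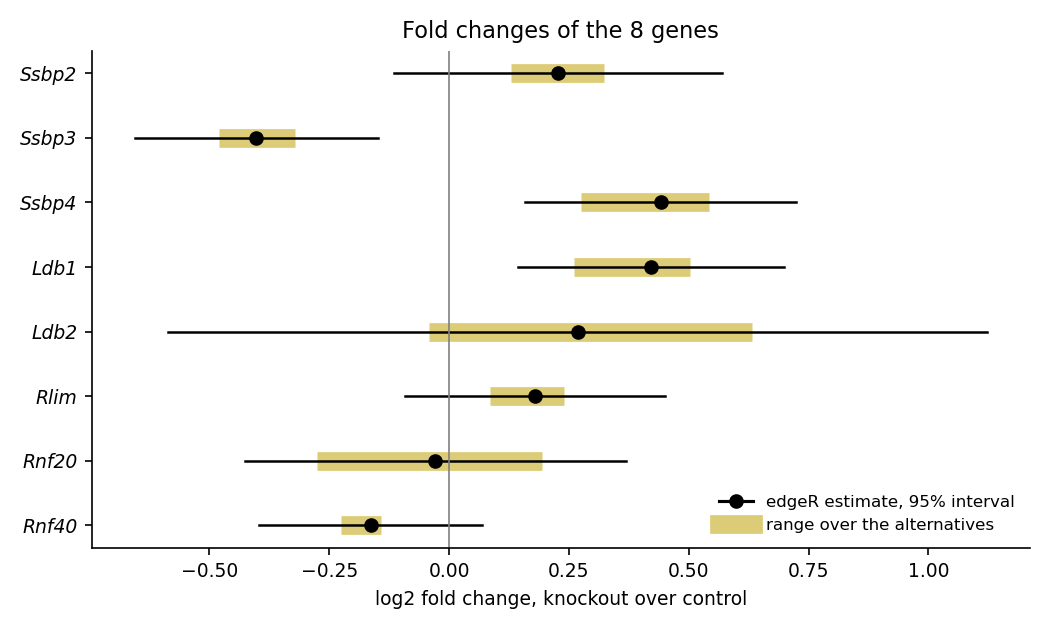
Log2 fold change, knockout over control, of each of the 8 genes from edgeR (point) with its 95% interval (line) and the range over 17 alternatives (shaded). The interval lies below 0 for Ssbp3 and above 0 for Ssbp4 and Ldb1 without adjustment for the number of genes tested, and crosses 0 for the other five.

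Set side by side per kilobase in the control libraries, the order of levels was Ssbp4 at 23.4 ± 2.59, Ldb1 at 13.4 ± 0.845, Ssbp3 at 11.2 ± 1.18, Rnf40 at 9.21 ± 0.213, Rnf20 at 6.45 ± 0.706, Rlim at 4.68 ± 0.576, Ssbp2 at 1.85 ± 0.163 and Ldb2 at 0.474 ± 0.134 CPM per kilobase (SD, n = 3). Ssbp4 thus led the SSBP transcripts and Ldb1 the LDB transcripts. In this order each neighbouring pair of genes was separated in the controls with no overlap of the 3 values, on this measure of length only. Per kilobase of longest transcript the order of at least 2 neighbouring pairs changed: Ssbp3 lay above Ldb1 in 3 of 3 control libraries (ratios of 1.09 to 1.32), and Rnf40 stood at 0.851, 1.04 and 0.834 times Rnf20. In the knockout libraries Ssbp4 was at 31.9 ± 4.24, Ldb1 at 18.0 ± 2.80, Ssbp3 at 8.48 ± 0.474 and Rnf40 at 8.22 ± 0.162 CPM per kilobase, so Ssbp3 came down to the level of Rnf40, with overlap. Rnf20 and Rlim also overlapped there, at 6.29 ± 1.82 and 5.30 ± 0.239 CPM per kilobase. The order rests on exon lengths from GRCm38, and isoforms that islets use may be shorter.

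Among the genes for LIM-domain proteins that LDB1 holds, a single one passed the test. Of 16 LIM-homeodomain and LIM-only genes, 9 passed the filter. Of the 9, 1 was called lower and 0 higher, beside 3.35% and 3.72% of all genes tested. Their median log2 fold change was 0.04, beside -0.0016 over all genes tested. The one that fell was Lmo1, which encodes a LIM-only protein: 8.47, 12.7 and 12.2 CPM in the controls, against 1.94, 2.61 and 4.23 CPM in knockout 1, 2 and 3 (log2 fold change -1.89, SE 0.283, edgeR adjusted p = 0.00207). It was called in 17 of 17 alternatives. Isl1, the LIM-homeodomain factor of mature endocrine cells, measured 91.5, 108 and 97.9 CPM in the controls, against 88.2, 81.9 and 97.8 CPM in knockout 1, 2 and 3, in overlap (edgeR adjusted p = 0.501). Lhx3 and Lhx6 were at most 1.37 CPM in any library, with edgeR adjusted p of 0.205 and 0.390, and control 1 had 0 counts of both.

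SSBP proteins also join the complex in which beta-catenin, BCL9 and Pygo act on Wnt target genes, and 2 genes of that list, Ctnnb1 and Bcl9, rose. That is 2 of 9 called higher and 0 lower, beside 3.72% and 3.35% of all genes tested, with a median log2 fold change of 0.26 beside -0.0016. Ctnnb1, which encodes beta-catenin, measured 266, 262 and 274 CPM in the controls, against 367, 446 and 466 CPM in knockout 1, 2 and 3 (log2 fold change 0.67, SE 0.126, edgeR adjusted p = 0.00755). Its call held in 16 of 17 alternatives and ended without both shallow libraries at an edgeR adjusted p of 0.0893, the highest of a range from 2.54e-05, where the log2 fold change was 0.77. Bcl9, the adaptor between beta-catenin and Pygo, measured 22.8, 21.7 and 28.6 CPM in the controls, against 34.8, 38.3 and 51.4 CPM in knockout 1, 2 and 3 (edgeR adjusted p = 0.0164). Its call ended without control 1 or control 2 (0.0805 and 0.0824) and without both shallow libraries (0.135), over a range from 1.98e-05 to 0.135. For Tcf7l1 the log2 fold change was 0.45 (edgeR adjusted p = 0.244), and Pygo1, Pygo2, Bcl9l, Tcf7, Tcf7l2 and Lef1 were not called.

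The genes that work with RNF20 and RNF40 on histone H2B did not move as a group. Of 9 genes for the E2 enzymes, WAC and the PAF1 complex, 1 was called higher and 1 lower, beside 3.72% and 3.35% of all genes tested. The median log2 fold change of the 9 was 0.08, beside -0.0016 over all genes tested. Wac, which encodes the protein that brings the ligase to RNA polymerase II, rose from 52.2 ± 4.23 to 71.6 ± 4.16 CPM (edgeR adjusted p = 0.0297). Skic8 (Wdr61 in the symbol table), a subunit that the PAF1 complex shares with the SKI complex, fell from 50.2 ± 5.19 to 34.1 ± 2.88 CPM (SD, n = 3; edgeR adjusted p = 0.0201). Both calls ended without control 1, control 2 or knockout 1 (0.0825 to 0.147 for Wac and 0.0595 to 0.0939 for Skic8) and without both shallow libraries (0.202 and 0.176). That of Wac also ended without knockout 2 (0.0589), without knockout 3 (0.0668) and after thinning to equal depth (0.0518). The 17 alternatives gave adjusted p of 0.00856 to 0.202 (Wac) and 0.00423 to 0.176 (Skic8). The log2 fold change of Ctr9 was 0.29 (edgeR adjusted p = 0.208), and 0.18 without knockout 3.

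Of the genes for removal of that ubiquitin 0 of 6 tested were called by edgeR, beside 7.07% of all genes tested. At an unadjusted edgeR p under 0.05 stood 2 of the 6, Usp22 and Eny2, beside 21.6% of all genes tested. Those 2 were called by edgeR without control 3 (adjusted p 0.0469 and 0.0231), when the acinar covariate was added and when no filter was used, and Eny2 alone by DESeq2 and after thinning. For Usp22, the protease of the SAGA module, the log2 fold change was 0.39 (edgeR adjusted p = 0.101), and for Eny2, a small subunit of the same module, it was -0.53 (0.0693). Both separated the groups, in opposite directions. Over all genes tested, 14.0% had every knockout library above every control library and 14.1% below. Atxn7l3 of the same list also separated them, at 44.7, 44.9 and 48.6 CPM in the controls against 54.3, 50.8 and 53.1 CPM in knockout 1, 2 and 3 (edgeR adjusted p = 0.339). For Usp27x the log2 fold change was 0.51 (edgeR adjusted p = 0.278), and it was 0.26 without knockout 1, the highest library, and 0.19 without both shallow libraries.

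**Figure D4:**
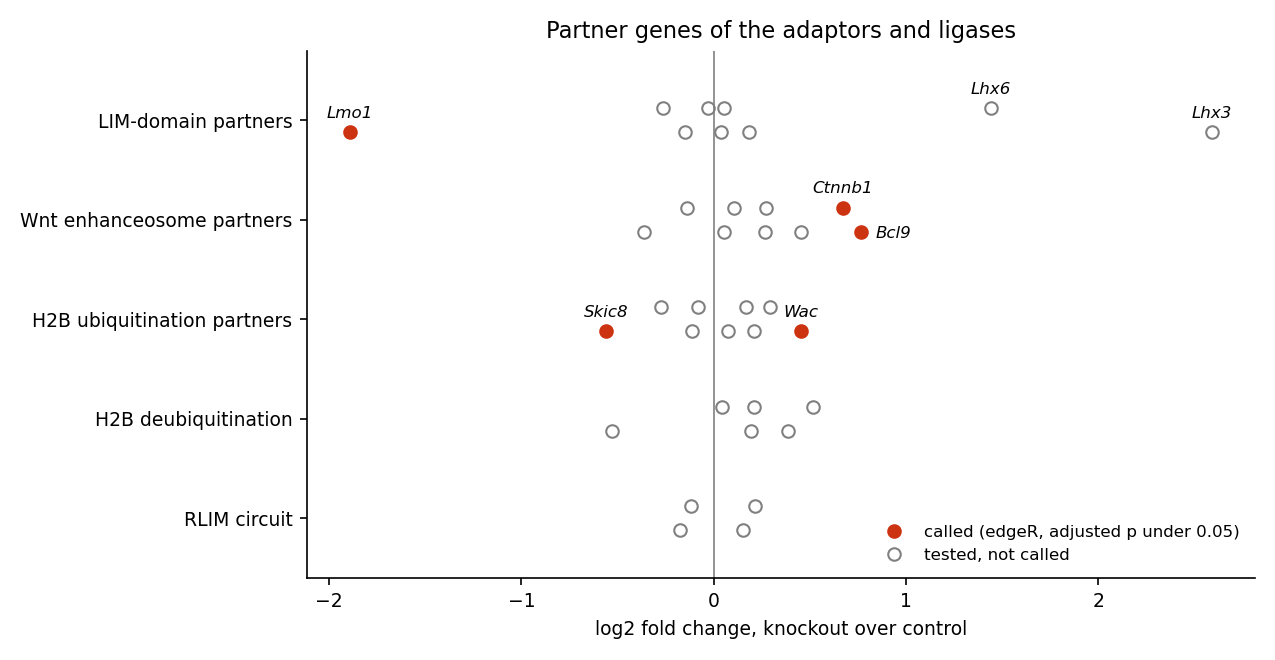
Log2 fold change, knockout over control, of every tested gene of the 5 partner lists, filled where called by edgeR. Lmo1 stands alone at -1.89 among the LIM-domain partners, Ctnnb1 and Bcl9 are called higher, and Skic8 and Wac are called in opposite directions; Lhx3 and Lhx6 are far out at near-zero levels and are not called.

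The genes with the library pattern nearest to a member were found by the root mean square difference of centred log2 CPM over the 6 libraries, among 8396 other genes with a mean of at least 10 CPM. Among the genes nearest to Ssbp3 were Rom1 (0.0201) and Cptp (0.0454), neither of them called by edgeR (adjusted p 0.120 and 0.192). Nearest to Ssbp4 were Eif3f (0.0198), Dis3l2 (0.0305) and B3galt6 (0.0331), with edgeR adjusted p of 0.0548, 0.137 and 0.149. Nearest to Ldb1 were Sox13 (0.0386), Rab11b (0.0462) and Llgl2 (0.0595). Of these Rab11b and Llgl2 were called higher (edgeR adjusted p 0.0453 and 0.0279), and both calls ended without control 1, control 2, knockout 1 or knockout 2 (0.106 to 0.180 for Rab11b and 0.0687 to 0.114 for Llgl2) and without both shallow libraries (0.291 and 0.237). That of Rab11b also ended with upper-quartile factors (0.0730) and with length and GC offsets (0.125). Over 6 libraries that fall into 2 groups many genes can share a pattern this simple.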

How the data were processed

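The values deposited by the authors are raw whole-number counts per Ensembl gene ID in 6 libraries. The submitters' processing notes name STAR 2.7.3a, featureCounts, Trim Galore 0.6.7 and FastQC 0.11.9 with the build GRCm39 (mm39). The sources used here do not state the annotation release, the strand setting or how read pairs and multi-mapping reads were counted. Of nonzero counts 62.3% to 73.2% were even, so a pair may have been counted as separate reads. A symbol was found for 52073 of 56980 IDs, and the rest held 2.20% to 5.33% of a library and stayed in its total. Exon lengths, GC content and gene overlaps came from GENCODE M21 (GRCm38) by gene ID, so no coordinates are given.

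The test on counts used edgeR 4.0.16 under R 4.3.3 (filterByExpr, TMM, robust quasi-likelihood test, Benjamini-Hochberg), after a check on simulated counts. SEs and 95% intervals derive from that test. The 17 alternatives used other scaling, filters, DESeq2 1.42.0, limma-voom (limma 3.58.1), an acinar covariate, length and GC offsets (mgcv 1.9.3), left-out libraries and thinning. Every pair of libraries differed by more than counting noise (the chi-square per gene averaged at least 39.8).

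The 8 genes and the lists were chosen with earlier results of these data known. Genes named are the 8, Ssbp1, the called or up to 3 lowest-p genes of each partner list, and 3 pattern neighbours each of Ssbp3, Ssbp4 and Ldb1, of which 1 is not reported here; any others were singled out with their values known. The partner lists were LIM-domain partners, Wnt enhanceosome partners, H2B ubiquitination partners, H2B deubiquitination and the RLIM circuit.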

Additional observations from a re-analysis of the deposited data

How the results depend on the processing

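Ssbp2, Ssbp3, Ssbp4, Ldb1, Rlim and Rnf40 kept the direction of their difference in 17 of 17 alternatives each. Ssbp3 passed the threshold with upper-quartile factors (log2 fold change -0.45), a filter of 1 CPM in 3 libraries (-0.41), DESeq2 (-0.39), limma-voom (-0.40), the acinar covariate (-0.41), length and GC offsets (-0.48) and thinning to equal depth (-0.43). The number of the 8 genes called, 0 in the test as reported, was 1 with upper-quartile factors, with the 1 CPM filter and with limma-voom, 2 without a filter, with length and GC offsets and after thinning, and 3 with DESeq2 and with the acinar covariate. It was 0 to 2 when libraries were left out one at a time. Over all genes, the 1312 calls of 18558 became 1442 of 18558 with upper-quartile factors and 1412 of 14144 with the 1 CPM filter. They became 1725 of 18558 with limma-voom, 2153 of 28937 without a filter and 1335 of 18113 with length and GC offsets. After thinning they were 1347 of 14941, with DESeq2 2041 of 18258 and with the acinar covariate 2158 of 18558. They were 519 to 1309 with a library left out, and 124 without the shallowest library of each group. Fewer samples were tested where libraries were left out. Rnf20 had a positive log2 fold change with limma-voom (0.039), the acinar covariate (0.012), without both shallow libraries (0.19) and after thinning (0.014), and -0.28 to 0.14 with a library left out. Ldb2 ran from -0.042 to 0.49 with a library left out. Beyond fewer samples, the cause of these shifts was not tested. Shares and ratios moved with the length used (the control share of Ssbp3 was 34.3% per kilobase of longest transcript and 45.3% in raw counts), while Ssbp3, Ssbp4, their ratio and Ssbp3 to Ldb1 separated the groups under each of the 3 lengths. No paired analysis was possible because the count columns carry no number that matches the animals. Depth limits Ldb2 most, with 22 counts in knockout 1.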
